A study of Mus musculus with 35 samples.

Results

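The subject is trimethylation of histone H3 at lysine 27 (H3K27me3) in neural progenitor cells (NPCs) cultured from mouse embryos with or without Mettl14. The Mettl14 protein pairs with Mettl3 in the writer complex of m6A, a methyl mark on adenosines of messenger RNA. The members are the 4 chromatin immunoprecipitation (ChIP) samples of this mark, out of 35 samples in the series: the homozygous knockout (KO) lines 530 and 534 and the wild-type (WT) lines 532 and 541. The comparison covers every peak of these lines, 43186 in KO 530 and 59561 in KO 534, against 58863 in WT 532 and 33188 in WT 541. Each list had been called against the line's own input DNA, and the labels give all 4 immunoprecipitates the same batch. The knockout removes the exon flanked by loxP sites, and the protocols describe both a germline deletion made with EIIa-Cre and a brain deletion made with nestin-Cre. They do not say which of these gave lines 530 and 534, so a line is treated here as 1 culture of 1 genotype, and the error between lines includes any difference between embryos. RNA of the same 4 lines (batch 3, 2 KO and 2 WT libraries) and H3K27ac peaks of the same 4 lines served as the other readouts.

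H3K27me3 is written by Polycomb repressive complex 2 (PRC2), whose catalytic subunit is Ezh2 and whose core also holds Eed and Suz12, and it marks genes that a cell keeps silent. In neural progenitors it typically covers the promoters of developmental regulators of other lineages and regions, with the Hox clusters as the broadest domains. It also spreads along the inactive X chromosome, the copy that the noncoding RNA Xist coats in female cells. Acetylation of the same residue (H3K27ac) marks active promoters and enhancers, and a single lysine cannot carry both marks. In mammals PRC2 is mostly found at promoters rich in the dinucleotide CG.

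Promoter sequences are shown for 5 of the genes named below, to give the letters under peaks found in 1 genotype. Their whole sequence window lay under a peak in both lines of 1 genotype and outside the peaks of both lines of the other, and at most 3 genes per group, those with the largest RNA difference, were taken. They come from RefSeq (GRCm38.p6) and run from 250 bases before to 50 bases after the annotated start, with each CG in capitals. The first 3 lay under peaks in both KO lines only. They are AI593442 (chr9:52679388-52679687, minus strand, 12 CG), the sulfotransferase gene Hs3st3b1 (chr11:63922235-63922534, minus strand, 23 CG) and Nr2e1 (chr10:42583541-42583840, minus strand, 19 CG), which encodes the neural stem cell regulator TLX.
AI593442: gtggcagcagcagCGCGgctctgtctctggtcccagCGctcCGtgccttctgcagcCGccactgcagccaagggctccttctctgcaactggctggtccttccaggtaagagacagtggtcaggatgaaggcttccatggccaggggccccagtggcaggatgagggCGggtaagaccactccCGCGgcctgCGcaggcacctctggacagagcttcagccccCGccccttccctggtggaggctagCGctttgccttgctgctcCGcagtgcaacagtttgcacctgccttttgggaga
Hs3st3b1: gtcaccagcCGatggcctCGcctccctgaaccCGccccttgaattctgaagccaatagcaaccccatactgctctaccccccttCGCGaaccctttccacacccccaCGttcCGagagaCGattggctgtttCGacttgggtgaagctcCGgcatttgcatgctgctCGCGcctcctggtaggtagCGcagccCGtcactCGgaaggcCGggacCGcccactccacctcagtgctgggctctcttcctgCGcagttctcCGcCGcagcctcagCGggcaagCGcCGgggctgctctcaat
Nr2e1: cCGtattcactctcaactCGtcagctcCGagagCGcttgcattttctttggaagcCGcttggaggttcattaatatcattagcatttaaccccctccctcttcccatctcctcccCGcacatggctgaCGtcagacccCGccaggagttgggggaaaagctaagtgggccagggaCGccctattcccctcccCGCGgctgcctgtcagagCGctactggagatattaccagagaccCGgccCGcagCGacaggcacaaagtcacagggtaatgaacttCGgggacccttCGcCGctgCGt
The other 2 lay under peaks in both WT lines only. They are Cnn2 (chr10:79988350-79988649, plus strand, 33 CG), which encodes the actin-binding protein calponin 2, and the sulfotransferase gene Gal3st2 (chr1:93861094-93861393, plus strand, 1 CG).
Cnn2: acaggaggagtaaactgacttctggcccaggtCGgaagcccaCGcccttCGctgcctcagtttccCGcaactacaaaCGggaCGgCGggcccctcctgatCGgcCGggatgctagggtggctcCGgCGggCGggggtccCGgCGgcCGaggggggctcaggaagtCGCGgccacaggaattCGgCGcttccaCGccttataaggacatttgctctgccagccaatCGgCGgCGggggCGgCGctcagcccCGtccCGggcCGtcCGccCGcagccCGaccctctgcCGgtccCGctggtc
Gal3st2: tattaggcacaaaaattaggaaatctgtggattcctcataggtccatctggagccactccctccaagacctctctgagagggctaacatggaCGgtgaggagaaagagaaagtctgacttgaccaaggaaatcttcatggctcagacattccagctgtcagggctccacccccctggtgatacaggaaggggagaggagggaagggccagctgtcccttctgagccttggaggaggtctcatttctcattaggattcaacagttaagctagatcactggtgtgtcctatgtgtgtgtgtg
A CG on either strand was present in 95.2% of the 16718 gene promoters with such a sequence. Genes marked in both KO lines only had a median of 15.5 CG per window (172 of 248 genes with a sequence), and genes marked in both WT lines only had a median of 6 (120 of 170). Genes marked in all 4 lines had a median of 17, and the median over all genes was 14. The ratio of observed to expected CG had a median of 0.61 in the both-KO genes and 0.33 in the both-WT genes, against 0.59 over all genes. By median, promoters marked in both WT lines only held fewer CG than the other groups, while Cnn2 held more than any of the other 4 printed promoters.

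H3K27me3 covered 48.9 Mb in KO 530 and 65.5 Mb in KO 534, against 58.8 Mb in WT 532 and 42.2 Mb in WT 541. The genotypes overlapped, and much of the larger coverage in KO 534 and WT 532 lay on the X chromosome. X-linked peaks covered 0.401 Mb in KO 530 and 18.8 Mb in KO 534, against 9.64 Mb in WT 532 and 0.242 Mb in WT 541. They made up 28.6% of the covered bases of KO 534 and 16.4% of those of WT 532, and under 1% in the other lines. Thus 1 line of each genotype had an H3K27me3-rich X chromosome. On the autosomes the lines covered 48.5 and 46.7 Mb (KO), against 49.1 and 41.9 Mb (WT).

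**Figure D1:**
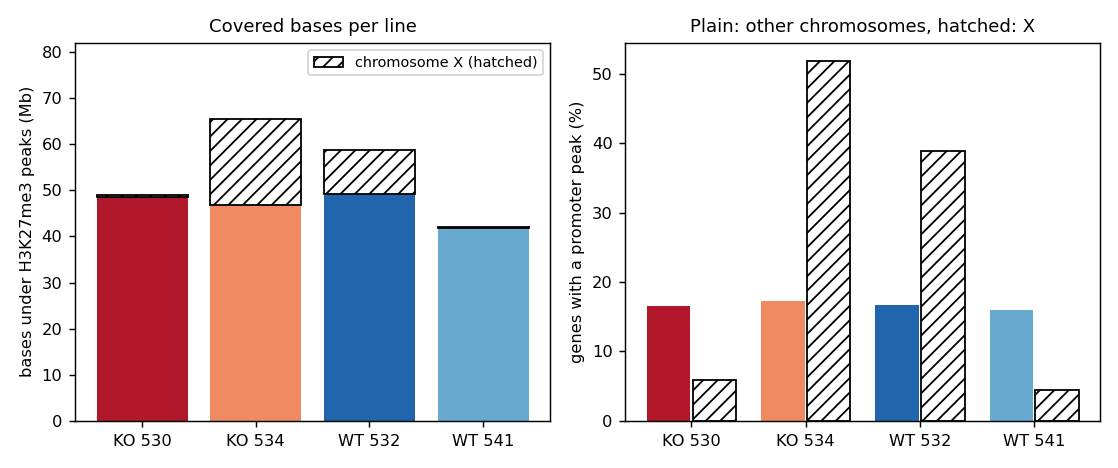
Bases under H3K27me3 peaks in each line in Mb, with the X chromosome hatched above the autosomes (left), and the percent of genes with a promoter peak on other chromosomes (plain) and on the X (hatched, right). KO 534 and WT 532 had 18.8 and 9.64 Mb on the X, while autosomal coverage lay between 41.9 and 49.1 Mb in all 4 lines.

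The X-linked difference also showed at promoters. Of 1022 X-linked genes, 60 and 530 had a promoter peak in KO 530 and KO 534, against 397 and 46 in WT 532 and WT 541. On the other chromosomes the shares were 16.6% and 17.3% in the KO lines, against 16.7% and 15.97% in the WT lines. Of the X-linked bases of KO 534, 42.7% were also covered in WT 532, and this was 83.2% of the X-linked bases of WT 532. In the RNA libraries Xist reached 0.199 and 1757 CPM (counts scaled to library size) in KO, against 2712 and 0.541 CPM in WT. The Y-linked gene Eif2s3y showed the mirror image, with 78.8 and 0.230 CPM in KO, against 0 and 80.4 CPM in WT, so each genotype was represented by 1 library with Xist and 1 with Y-linked RNA. The RNA table does not tie libraries to lines. Whole-genome totals are therefore given with autosomal values.

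In the number of peaks, covered bases and median width the genotypes overlapped. Exact permutation tests (two-sided) over 2 KO and 2 WT lines cannot go below p = 0.333, so they can neither show a difference nor its absence. The exact tests gave p = 0.667 for the number of peaks (KO minus WT 5348, or 2579.5 on autosomes with p = 1) and p = 0.667 for covered bases (6.74 Mb, or 2.09 Mb on autosomes with p = 1). Median peak width was 588 and 585 bp in the KO lines, against 558 and 632 bp in the WT lines (exact permutation p = 1). The median fold over input, the peak caller's own value in the authors' lists and used here only to describe each list, was 3.20 and 3.27 in the KO lines, against 3.31 and 3.63 in the WT lines (exact permutation p = 0.333). It was lower in both KO lines than in both WT lines. Peaks of at least 5 kb numbered 1407 and 1754 in the KO lines, against 1402 and 1351 in the WT lines. On the autosomes their numbers overlapped between genotypes, at 1397 and 1335 in KO, against 1294 and 1344 in WT. The autosomal bases they covered did not overlap, at 14.8 and 13.8 Mb in KO, against 13.3 and 13.5 Mb in WT (KO minus WT 0.90 Mb, exact permutation p = 0.333).

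Most H3K27me3 peaks lay between genes. Each peak was placed by its midpoint in the authors' merged annotation, first as promoter (within 1 kb of a transcript start), then exon, intron or intergenic. Promoter peaks were 6.29% and 5.54% of the KO lists, against 5.17% and 7.69% of the WT lists (exact permutation p = 1). Intergenic peaks were 63.4% and 61.4% in KO, against 63.6% and 62.9% in WT (exact permutation p = 0.667), intronic peaks 27.4% and 30.0% in KO, against 28.3% and 25.9% in WT (p = 0.667), and exonic peaks between 2.87% and 3.55% in all lines. Promoter peaks were the broadest class, with median widths of 1505.5 and 1345.5 bp in KO, against 1157 and 1454 bp in WT, and intergenic peaks the narrowest, at 541 and 544 bp against 519 and 575 bp.

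Merging the 4 lists gave 115023 regions over 115.5 Mb. Regions present in all 4 lines were few but broad: 9601 regions with a median of 2852 bp held 41.1 Mb, and 16.9% of them were promoter regions against 3.93% of all regions. Regions of 1 line only numbered 75019 and had a median of 391 bp. Both KO lines and neither WT line shared 3397 regions (2.95%, 3.29 Mb, median 823 bp), and both WT lines and neither KO line shared 3065 (2.66%, 3.00 Mb, median 837 bp). Another 16938 regions were shared by 1 KO and 1 WT line, and 8172 of these were X-linked regions of KO 534 and WT 532. The mixed count joins 4 possible pairs of lines and held 8703 autosomal regions. Each genotype group is 1 pair, with 3330 (KO) and 3051 (WT) autosomal regions. On autosomes the shared bases divided by the joint bases were 0.414 for the 2 KO lines and 0.424 for the 2 WT lines, against 0.362, 0.403, 0.364 and 0.406 for the pairs of a KO with a WT line. Lines of the same genotype thus shared more autosomal bases than any mixed pair. With 2 lines per genotype and no read depth in the files, the part of genotype in this order was not tested.

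The Hox clusters, whose homeodomain factors specify position along the body axis, were among the broadest domains and were marked in every line. All 39 Hox promoters had a peak in all 4 lines. The widest peak of KO 530 spanned 182214 bp from Hoxc4 to Hoxc13 (chr15:102904856-103087069, 18.1-fold), and in KO 534 the cluster was split into peaks of 118542 and 55122 bp. The WT lines had their widest Hoxc peaks at 65778 bp (WT 532) and 65753 bp (WT 541). The Hoxb peak over Hoxb3 measured 131318 and 145326 bp in the KO lines, against 131209 and 113844 bp in the WT lines, and the Hoxd peak over Hoxd3 measured 88483 and 55971 bp in KO, against 88339 and 55772 bp in WT. The Hoxa peak over Hoxa3 measured 82289 and 80802 bp in KO, against 81047 and 48369 bp in WT. The width of a single peak depends on whether the caller bridged a gap, and Hoxd shows such a split in 1 line of each genotype. Hox RNA was at or near 0: no Hox gene passed the low-count filter, and the highest value in any library was 0.230 CPM (Hoxc13, 1 KO library). Other peaks among the 10 widest of a line included Gata4, Pax2, Tfap2a, Pax3, Tbx3 and Tlx1, all transcription factors of organ or regional patterning. A chromosome 8 interval without a named gene (90081 bp in KO 530, from position 123537342) was among the 10 widest in every line.

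Most promoters of developmental regulators were marked in every line, and few housekeeping promoters were marked in any. Factors of non-neural lineages such as Gata4 were marked at 40 of 44 promoters in each of the 4 lines. Neural regional factors were marked at 43 and 44 of 47 in KO, against 43 and 44 in WT. Wnt, BMP and Hedgehog ligands and antagonists were marked at 35 and 33 of 39 in KO, against 33 and 34 in WT. Housekeeping promoters were marked at 0 and 2 of 25 in KO, against 1 and 0 in WT, and the marked ones were the X-linked Hprt and Pgk1. Neural stem cell and radial glia genes were marked at 7 and 5 of 23 in KO, against 4 and 3 in WT. The identity of the cultures was checked on RNA. All 23 neural stem cell genes passed the low-count filter, with 18 of 20 glial and 18 of 30 neuronal genes. The counts were 0 of 10 for microglial, 2 of 9 for endothelial, 2 of 10 for pluripotency and 6 of 11 for fibroblast and pericyte markers. Over all genes 12836 of 23422 gene units passed. The share of the fibroblast and pericyte markers was near that of all genes. The lists were chosen with results of these data known, and these counts are descriptions.

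**Figure D2:**
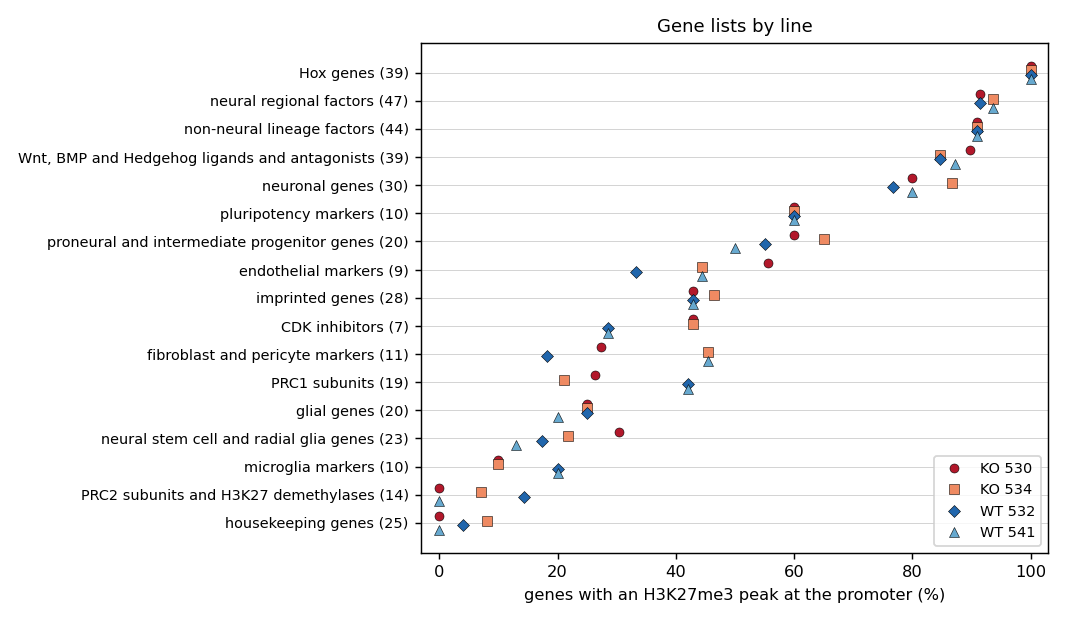
Percent of each gene list with an H3K27me3 peak within 1 kb of a start, by line, with the number of annotated genes in brackets. Hox genes were at 39 of 39 in all 4 lines, and housekeeping genes at no more than 2 of 25.

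At promoters, the mark was shared by all 4 lines at 2697 of 23895 annotated genes and absent in all 4 at 17930. Both KO lines and neither WT line marked 248 genes (1.04%, 4 of them X-linked), and both WT lines and neither KO line marked 170 (0.711%, 1 X-linked). For comparison, 639 genes were marked in 1 KO and 1 WT line, of which 307 were X-linked and 332 were on other chromosomes. This count joins 4 possible pairs of lines, whereas each genotype group is 1 pair, with 244 (KO) and 169 (WT) autosomal genes. These genotype-bound peaks were narrow and weak beside the shared ones. Their median width was 877.5 and 828 bp in the KO lines at both-KO genes, and 778 and 663 bp in the WT lines at both-WT genes, whereas the genes marked in all lines had medians of 3455 and 3541 bp in KO and 3158 and 3251 bp in WT. The peaks of the 2 lines overlapped each other at 213 of the 248 both-KO genes and at 132 of the 170 both-WT genes, and lay at different places within the windows at the others. At 45 and 39 of these genes the peak also overlapped a peak of the other genotype that ended outside the window, so that there the domain reached the promoter in 1 genotype and stopped short of it in the other.

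Of the listed radial glia and neural stem cell genes 1 of 23 was marked in both KO lines only, as were 1 of 20 proneural genes, 1 of 30 neuronal genes and 0 of 47 neural regional factors, beside 1.04% of all genes. Sox1, an early neural transcription factor, lay under peaks of 4811 and 4715 bp in KO 530 and KO 534 (4.85-fold and 5.60-fold, chr8:12394019-12398829 in KO 530) and under none in WT. Its RNA was 31.4 and 30.2 CPM in KO, against 37.7 and 41.9 CPM in WT, a log2 fold change of −0.37 (SE 0.15) that did not pass (edgeR quasi-likelihood test, adjusted p = 0.097). Nr2e1, whose promoter is printed above, had peaks of 4078 and 7156 bp in the KO lines, which also reached its neighbour Ostm1. Nr2e1 RNA was 12.5 and 9.31 CPM in KO, against 47.3 and 39.5 CPM in WT (log2 fold change −1.996, SE 0.20, edgeR adjusted p = 0.00066), and Ostm1 RNA was 62.5 and 55.5 CPM in KO, against 52.2 and 57.7 CPM in WT (0.10, adjusted p = 0.63). The same KO domain spanned a start whose RNA was lower and another whose RNA did not pass the test.

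Bcl11b, a zinc-finger factor of neuronal and T-cell differentiation, had KO peaks of 5727 and 5211 bp and RNA of 8.50 and 4.595 CPM in KO, against 15.7 and 20.3 CPM in WT (log2 −1.46, edgeR adjusted p = 0.0092). Hs3st3b1, a heparan sulfate sulfotransferase gene, had KO peaks of 5348 and 5817 bp and RNA of 8.50 and 9.42 CPM in KO, against 39.7 and 36.6 CPM in WT (−2.09, adjusted p = 0.00035). The synaptic vesicle gene Syt1 had KO peaks of 3579 and 3606 bp and RNA of 15.3 and 9.31 CPM in KO, against 17.1 and 37.9 CPM in WT (−1.16, adjusted p = 0.046). All values of Bcl11b, Hs3st3b1 and Syt1 RNA in KO libraries lay below those of WT libraries. Erbb4, a neuregulin receptor gene, had KO peaks of 3193 and 3762 bp and RNA of 5.98 and 2.41 CPM in KO, against 6.78 and 2.03 CPM in WT, with overlapping groups (−0.09, adjusted p = 0.92). The widest members, Gm10578 (16740 and 13857 bp) and Mir135a-2 (10905 and 10952 bp), had no counts in any library. Gm10578 lies inside the Ebf3 domain described below. The predicted gene 6530402F18Rik had KO peaks of 5089 and 4099 bp and shares its RNA value with Ntng2. At Bcl11b, Hs3st3b1, Erbb4, Gm10578, Mir135a-2 and 6530402F18Rik a KO peak overlapped a WT peak that lay outside the window. Their widths are therefore not those of domains found in KO alone.

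The largest RNA falls among the both-KO genes started from transcripts that were clearly present in WT. Fam135b, whose function is little known, had 0.332 and 0.517 CPM in KO, against 31.3 and 43.0 CPM in WT (log2 −6.41, SE 0.32, edgeR adjusted p = 0.00011), with KO peaks of 438 and 1162 bp. Thbd, the thrombomodulin gene, had 0.133 and 0.977 CPM in KO, against 20.1 and 16.2 CPM in WT (−4.96). AI593442 had 1.20 and 1.44 CPM in KO, against 25.3 and 52.6 CPM in WT (−4.87), under KO peaks of 3017 and 2975 bp at 7.08-fold and 9.12-fold. In each of these 3 genes both KO libraries lay far below both WT libraries. Rcan2, a calcineurin regulator, had 0.930 and 1.67 CPM in KO, against 33.2 and 34.7 CPM in WT (−4.68). Gfra1, the receptor for the neurotrophic factor GDNF, had 2.12 and 1.67 CPM in KO, against 21.5 and 18.6 CPM in WT (−3.40). Cped1 (−4.88) and the adhesion receptor genes Gpr98 (−4.38) and Gpr126 (−3.73) completed the 8 largest falls. In all, 6 both-KO genes were higher in KO, led by Ttc30a2 (2.91) and the cholesterol exporter Abca1, which had 74.9 and 27.4 CPM in KO, against 9.96 and 12.8 CPM in WT (2.16, adjusted p = 0.0072). The others were the Notch effector Hey1 (0.82), Champ1 (0.77), Pde3a (0.70) and the nucleoside transporter Slc29a1 (0.50).

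Genes marked in both WT lines only included Nkd1, Nrp2 and Gli2. None of the 39 Wnt, BMP and Hedgehog ligands and antagonists was marked in both lines of 1 genotype only. Nkd1, a Wnt antagonist, lay next to WT peaks of 10469 and 11952 bp (chr8:88510215-88520683 in WT 532) that reached to within 1 kb of its start, while the nearest upstream KO peaks ended 1.91 kb (KO 530) and 2.49 kb (KO 534) before it. Its RNA was 152.5 and 127.2 CPM in KO, against 32.7 and 26.1 CPM in WT (log2 2.25, SE 0.17, edgeR adjusted p = 0.00022). Nrp2, a semaphorin receptor gene, had WT peaks of 2634 and 3451 bp and RNA of 89.6 and 68.6 CPM in KO, against 19.04 and 27.2 CPM in WT (1.78, adjusted p = 0.0011). Gli2, a transcription factor of the Hedgehog pathway, had WT peaks of 835 and 1148 bp and RNA of 31.5 and 24.5 CPM in KO, against 6.97 and 11.4 CPM in WT (1.61, adjusted p = 0.0034). It was picked for its role after its values were seen. In Nkd1, Nrp2 and Gli2 both KO libraries lay above both WT libraries.

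Lingo1, a neuronal membrane protein that restrains myelination, had 100.6 and 79.4 CPM in KO, against 19.04 and 20.5 CPM in WT (log2 2.19, edgeR adjusted p = 0.00027), with WT peaks of 699 and 2284 bp. Leprel4, a collagen-modifying protein gene, had 36.7 and 49.3 CPM in KO, against 11.6 and 8.72 CPM in WT (2.08). Cd151, a tetraspanin gene, had WT peaks of 5978 and 5842 bp and RNA of 65.8 and 68.4 CPM in KO, against 36.4 and 42.1 CPM in WT (0.77, adjusted p = 0.0064). Cnn2, with its promoter printed above, had 23.2 and 48.3 CPM in KO, against 21.0 and 11.1 CPM in WT (1.16, adjusted p = 0.048). Tgm7, a transglutaminase gene, had 342 counts in the KO libraries and 2 in the WT libraries, a ratio of 163 with a 95% exact counting interval of 44.7 to 1350. Accsl had 40 and 3 counts (ratio 12.7, interval 4.04 to 64.1). Nupr1l, Acsm3 and Psd2 rose by 2.26, 2.21 and 2.04 on the log2 scale, from low levels. Nupr1l had 0.996 and 0.919 CPM in KO, against 0.311 and 0.0676 CPM in WT. Acsm3 had 2.19 and 2.355 CPM in KO, against 0.436 and 0.541 CPM in WT. Psd2 had 8.96 and 4.08 CPM in KO, against 0.996 and 2.16 CPM in WT. Both WT libraries of Nupr1l and Acsm3 lay below the filter level of 0.642 CPM. The widest peak at a both-WT gene, 17600 bp in WT 532 and 16908 bp in WT 541, ended within 1 kb of Pcgf1, a PRC1 subunit gene, whose RNA was 3.98 and 6.09 CPM in KO, against 4.92 and 3.65 CPM in WT (0.24, adjusted p = 0.62). C1qa, Gal3st2, Pax4 and Mir7233, also among the widest, were too low for the RNA test. At Nkd1, Pcgf1, Cd151, Nrp2, C1qa, Pax4 and Mir7233 a WT peak overlapped a KO peak that lay outside the window. Their widths are therefore not those of domains found in WT alone.

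**Figure D3:**
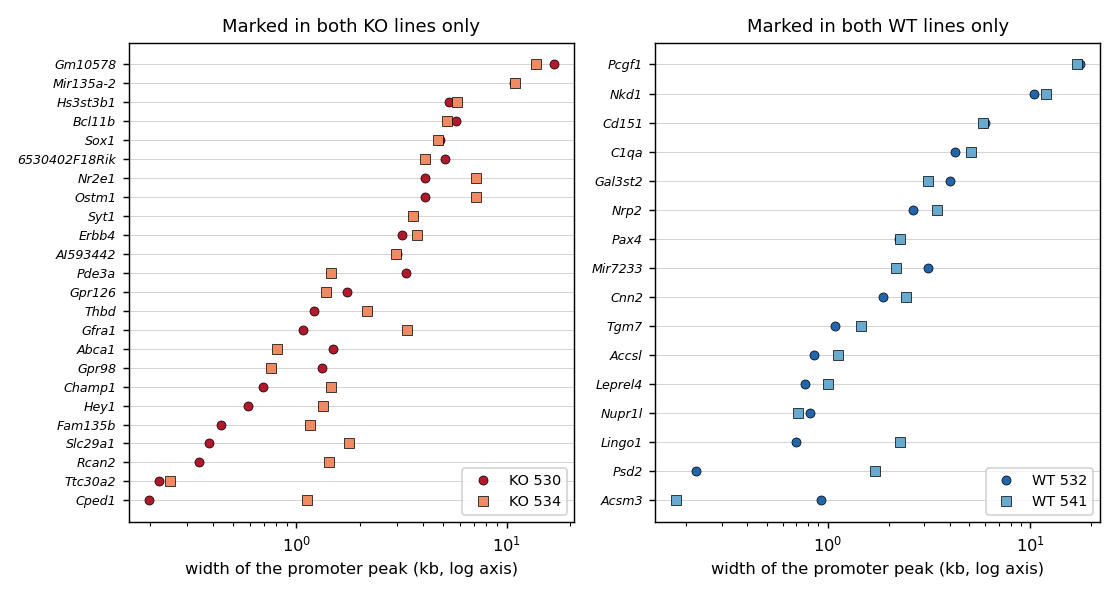
Width in kb, on a log axis, of the promoter peak in each line at named genes of both groups: genes marked in both KO lines only (left) and in both WT lines only (right). Each point is 1 line, and the widths run from under 0.2 kb (199 bp at Cped1 in KO 530, 178 bp at Acsm3 in WT 541) to 17600 bp at Pcgf1.

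Genes marked in both KO lines only were called lower in KO more often than higher, and genes marked in both WT lines only were called higher. Over all 12836 genes tested with edgeR (quasi-likelihood F test, Benjamini-Hochberg adjusted p below 0.05), 2221 were higher (17.3%) and 1854 lower (14.4%), with a median log2 fold change of 0.00. Of the 247 both-KO gene units, 168 passed the low-count filter, and 78 of these were lower and 6 higher, with a median of −0.71. Of the 170 both-WT genes, 73 passed, and 31 were higher and none lower at this threshold, with a median of 0.54. At an unadjusted p below 0.05, 2 of the both-WT genes were lower, DESeq2 gave 30 higher and 1 lower after adjustment, and limma gave 31 higher and none lower. Other peak and library choices gave 0 to 7 lower both-WT genes, the most being 7 lower and 33 higher with a 2 kb window, and 7 lower and 61 higher without WT 532. Other peak choices gave 5 to 40 higher both-KO genes, the most being 40 higher and 143 lower of 427 tested without KO 530. Genes marked in all 4 lines stood between the 2 groups, with 155 higher and 204 lower of 1025 tested and a median of −0.14. Leaving out 1 WT library or the other brought the calls over all genes to 2356 or 2082, and the both-KO genes then gave 69 or 63 lower and the both-WT genes 26 or 25 higher.

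A gene can pass the filter through the genotype with more RNA alone, so the groups were also counted on the genotype with less. Of the both-KO genes, 149 had both KO libraries at the filter level of 0.642 CPM or above, and 64 of them were lower and 6 higher, beside 13.5% lower among all 12279 such genes. Of the both-WT genes, 64 had both WT libraries at that level, and 26 were higher and none lower with edgeR (2 lower at an unadjusted p below 0.05, 1 lower with DESeq2, none with limma), beside 16.8% higher among all 12388 such genes. Counting only genes whose peaks in the 2 lines overlapped each other gave 76 lower and 6 higher of 152 for both-KO genes, and 26 higher and none lower of 64 for both-WT genes. In bulk cultures, fewer cells with a transcript and less RNA per cell cannot be told apart, and the same holds for a peak and the share of cells that carry it.

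**Figure D4:**
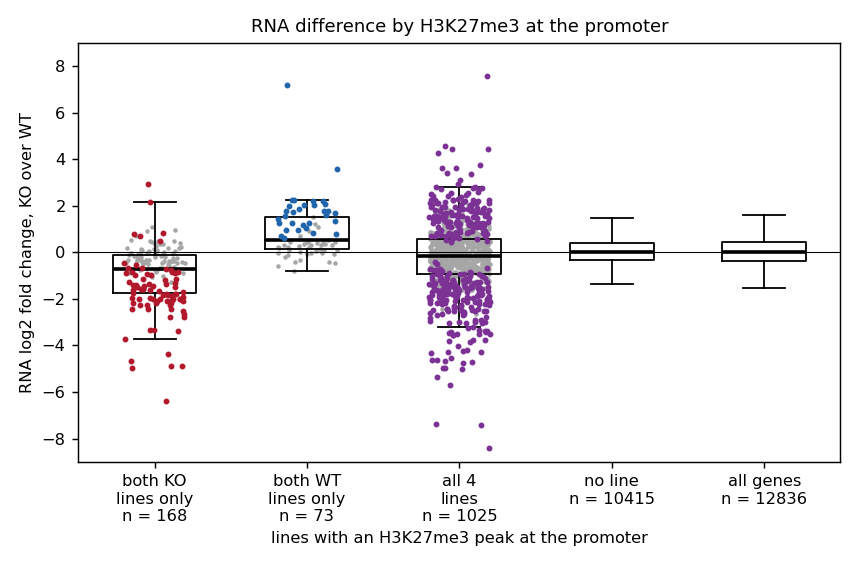
RNA log2 fold change, KO over WT, for genes grouped by the lines with an H3K27me3 peak at the promoter. Boxes give the median and quartiles, whiskers the usual box-plot range, and coloured points the genes past the adjusted p threshold. The medians were −0.71 for genes marked in both KO lines only, 0.54 for both WT lines only and −0.14 for all 4 lines.

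H3K27ac at the same promoters rarely switched with H3K27me3. Of the 248 both-KO genes, 163 had an H3K27ac peak at the promoter in all 4 lines, beside 12931 of all 23895 genes. By line, 173 and 187 (69.8% and 75.4%) had one in KO 530 and KO 534, against 194 and 187 (78.2% and 75.4%) in WT 532 and WT 541. Over all genes the shares were 57.4% and 60.8% in KO, against 61.9% and 59.7% in WT, so KO 530 was lowest there too. Of the both-KO genes, 8 (3.23%) were acetylated in both WT lines and neither KO line, against 1.08% of all genes and 94 of the 2697 genes marked in all 4 lines (3.49%). The share was thus close to that of the genes marked in all 4 lines. These were AI593442, Arsj, Btn1a1, Gm1715, Gpx3, Pcdhga8, Pla2g16 and the sodium channel gene Scn3b. RNA was lower for AI593442, Gpx3 (log2 −1.30), Pla2g16 (−2.43) and Scn3b (−1.92), by the edgeR test. AI593442 and Gm1715 lay under the same peak. Arsj, Btn1a1 and Gm1715 were too low for the RNA test, and Pcdhga8 has no RNA value of its own because the table joins it with other protocadherin genes. Of the 170 both-WT genes, 70 had an H3K27ac peak in all 4 lines, with 76 and 90 in the KO lines, against 85 and 86 in the WT lines. Among them, 1 (0.588%, beside 0.444% of all genes) was acetylated in both KO lines and neither WT line. This was Sema6b, a semaphorin gene, with 10.1 and 9.19 CPM in KO, against 2.86 and 2.70 CPM in WT (1.79, adjusted p = 0.0023). Peaks of both marks at 1 promoter of a culture cannot be told apart into different cells, alleles or bases of the window.

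Beyond presence at promoters, the bases covered by all peaks within a whole gene were compared. This measure was added after the data were seen. Of 9808 named loci with any covered base, 51 had at least 5 kb more H3K27me3 in each KO line than in either WT line (0.52%), and 45 (0.459%) had at least 5 kb more in each WT line than in either KO line. With no minimum difference the numbers were 1822 and 1166. The 5 kb minimum was not scaled to locus length, which was 1068 kb at Erbb4. Ebf3, an early B-cell factor family member expressed in differentiating neurons, was covered over 65.8 and 52.6 kb in KO, against 13.0 and 21.9 kb in WT, of a locus of 120.8 kb (chr7:137193671-137314480). Its RNA averaged 4.97 CPM in KO and 28.2 CPM in WT (log2 −2.51, edgeR adjusted p = 0.00035). Robo1, an axon guidance receptor gene, was covered over 33.7 and 29.1 kb in KO, against 4.53 and 7.43 kb in WT (RNA −0.68, adjusted p = 0.053). Erbb4 was covered over 54.0 and 33.1 kb in KO, against 12.6 and 8.202 kb in WT. Magi1, a junctional scaffold gene, was covered over 20.2 and 13.5 kb in KO, against 3.08 and 1.66 kb in WT, with no promoter peak in any line, and its RNA was 64.7 CPM in KO and 134.5 CPM in WT (−1.06, adjusted p = 0.0012). Smyd3 was covered over 36.3 and 35.0 kb in KO, against 22.0 and 20.2 kb in WT (RNA 0.61, adjusted p = 0.065). Shroom3 was covered over 26.7 and 26.2 kb in KO, against 12.7 and 15.3 kb in WT (RNA 0.64, adjusted p = 0.065).

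In the other direction, Cacna1g, a T-type calcium channel gene, was covered over 2.59 and 3.28 kb in KO, against 16.4 and 19.4 kb in WT (chr11:94408391-94474198), although its promoter was marked in all 4 lines. Its RNA averaged 51.3 CPM in KO and 3.85 CPM in WT (log2 3.73, edgeR adjusted p = 0.00055). Srrm3, a neuronal splicing factor gene, was covered over 17.0 and 22.2 kb in KO, against 33.5 and 33.2 kb in WT (RNA 2.15, adjusted p = 0.034). The teneurin gene Tenm4 was covered over 111.1 and 75.4 kb in KO, against 155.8 and 142.1 kb in WT (RNA 0.95, adjusted p = 0.087). Camta1 was covered over 73.4 and 60.5 kb in KO, against 112.4 and 88.9 kb in WT (RNA 0.14, adjusted p = 0.55). Rbfox3 was covered over 45.3 and 45.1 kb in KO, against 60.3 and 65.2 kb in WT (RNA −0.67, adjusted p = 0.20). Of the 35 loci tested for RNA among those with more coverage in KO, 13 were lower and 1 higher, with a median of −0.64, beside 14.4% lower and 17.3% higher over all genes tested. Of the 24 tested among those with more coverage in WT, 8 were higher and none lower with edgeR (1 lower at an unadjusted p below 0.05, none with DESeq2 or limma), with a median of 0.51.

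**Figure D5:**
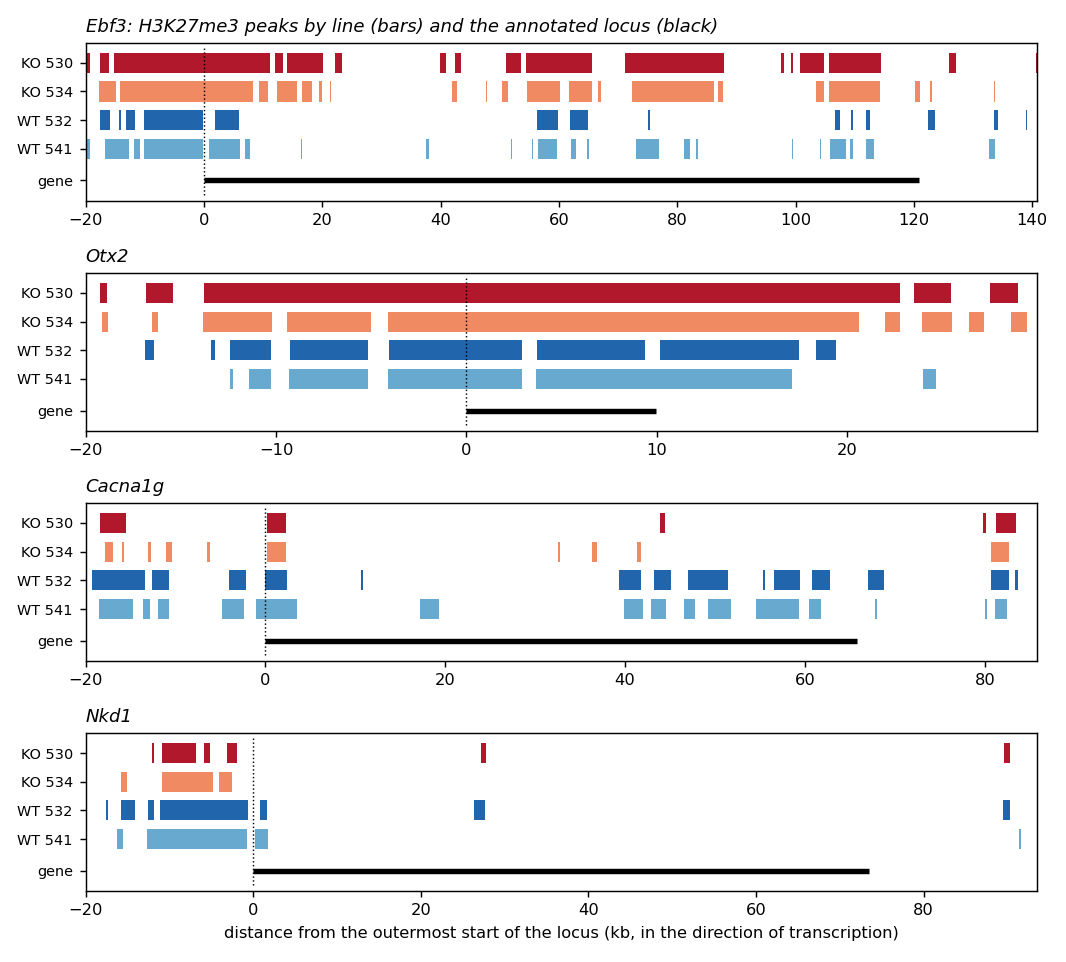
H3K27me3 peaks of each line (bars) along Ebf3, Otx2, Cacna1g and Nkd1, as distance in kb from the outermost start in the direction of transcription, with the annotated locus in black. Ebf3 had more covered bases in the KO lines (65.8 and 52.6 kb, against 13.0 and 21.9 kb in WT), and Cacna1g more in the WT lines (2.59 and 3.28 kb in KO, against 16.4 and 19.4 kb).

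The genes with the largest RNA differences were next read for H3K27me3. Of the 10 largest falls, 6 were marked in all 4 lines, namely F2rl1, Slc35f2, Lin28b, Adamts19, Otx2 and Pcp4l1, beside 11.3% of all genes. Otx2, a homeobox gene of forebrain and midbrain patterning, had 0.332 and 0.115 CPM in KO, against 11.3 and 7.16 CPM in WT (log2 −5.37, edgeR adjusted p = 0.00055), and its widest promoter peak measured 36540 and 24726 bp in KO, against 6994 and 13489 bp in WT. Lin28b, a regulator of let-7 microRNA processing, had no counts in KO and 40 counts in WT, at least 6.97-fold lower in KO against a floor of 3 counts per library, and its promoter peak measured 12210 and 6397 bp in KO, against 5146 and 6343 bp in WT. Pcp4l1, a calmodulin-regulator gene, had peaks of 2873 and 3082 bp in KO, against 1015 and 728 bp in WT (RNA −4.999). F2rl1, the gene of a protease-activated receptor, had peaks of 1958 and 1873 bp in KO, against 1017 and 999 bp in WT, and was at least 14.4-fold lower in KO. Of the 6 promoters, 5 had a wider peak in both KO lines than in both WT lines, at Lin28b by little (6397 bp in KO 534, against 6343 bp in WT 541), and the groups overlapped at Slc35f2. Of all 2697 promoters marked in all 4 lines, 31.7% were wider in both KO lines and 17.5% in both WT lines. These are widths of single peaks, which also depend on whether the caller bridged a gap. Fam135b was marked in both KO lines only, Lin7b in KO 530 only, and Tnfsf18 and Klhl4 in no line. Of the 10 largest rises, Tg, 6720468P15Rik, Vmn2r57, Serpinb11, Olfr1353 and Gnb3 were marked in no line, beside 75.0% of all genes. Tgm7 was marked in both WT lines only, 1300017J02Rik in KO 530 only, Gtf2a1l in both KO lines and WT 532, and Gm13247 in all 4.

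Genes of the Polycomb machinery were read the same way. RNA of the catalytic subunit gene Ezh2 was 115.3 and 129.4 CPM in KO, against 237.2 and 244.9 CPM in WT (log2 −0.98, SE 0.13, edgeR adjusted p = 0.0016), and RNA of Eed was 34.6 and 42.8 CPM in KO, against 66.7 and 61.7 CPM in WT (−0.73, adjusted p = 0.011). Suz12 had 195.3 and 179.8 CPM in KO, against 220.3 and 234.7 CPM in WT (−0.28, adjusted p = 0.14). Of 14 PRC2 subunit and H3K27 demethylase genes tested, 6 were lower, the others being Rbbp4, Rbbp7, Aebp2 and Mtf2, and none was higher (none at an unadjusted p below 0.05, and none with DESeq2 or limma), with a median of −0.34, beside 14.4% lower and 17.3% higher over all genes tested. The demethylase genes Kdm6a (0.04) and Kdm6b (0.16) did not pass. The 19 PRC1 genes had a median of 0.11. PRC1 promoters were marked at 5 and 4 of 19 in KO, against 8 and 8 in WT. Over all genes the shares were 16.1% and 18.8% in KO, against 17.6% and 15.5% in WT. Pcgf1, Cbx7 and Phc2 were marked in both WT lines only, beside 0.711% of all genes. At Pcgf1 a WT peak overlapped a KO peak that lay outside the window, and the Cbx7 peaks measured 353 and 317 bp. None of these 3 passed the RNA test. The Phc2 peaks of the 2 WT lines lay at different starts of the gene.

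Further members of the lists, with roles in differentiation, growth control or other cell types, were marked in both lines of 1 genotype only. The Notch ligand gene Dll3 had narrow KO peaks of 197 and 336 bp and RNA of 4.98 and 4.37 CPM in KO, against 24.9 and 12.8 CPM in WT (log2 −2.01, edgeR adjusted p = 0.0035). Cdkn2b, which encodes the CDK inhibitor p15, had KO peaks of 533 and 1103 bp and RNA of 1.59 and 2.41 CPM in KO, against 8.71 and 5.81 CPM in WT (−1.85, adjusted p = 0.0067). Its neighbour Cdkn2a was marked in all 4 lines, with peaks of 13643 and 13684 bp in KO, against 12738 and 13654 bp in WT, and its RNA was 4.91 and 5.80 CPM in KO, against 17.9 and 17.3 CPM in WT (−1.71, adjusted p = 0.0011). Of the 7 CDK inhibitor genes, 4 were lower and 1 higher, a small count beside 14.4% and 17.3% of all genes tested. The imprinted zinc-finger gene Plagl1 had KO peaks of 1739 and 1107 bp and RNA of 2.92 and 3.68 CPM in KO, against 13.3 and 14.9 CPM in WT (−2.09, adjusted p = 0.001). The matrix gene Fn1 had KO peaks of 2278 and 500 bp and RNA of 10.8 and 9.54 CPM in KO, against 24.6 and 28.8 CPM in WT (−1.40, adjusted p = 0.0017). Hnf4a, Cdh5 and Dcn (both KO lines) and Pdgfrb (both WT lines), factors or markers of liver, endothelium, fibroblasts and pericytes, were too low for the RNA test.

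Mettl14 itself checks the labels only in part. Its RNA was 30.3 and 22.7 CPM in KO, against 37.8 and 35.4 CPM in WT (log2 −0.46, edgeR adjusted p = 0.084). The deposited value counts the whole locus, and the knockout removes 1 exon, so this value does not measure the deletion.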

How the data were processed

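H3K27me3 and H3K27ac peak lists of 4 NPC lines (2 KO, 2 WT) and an RNA table of batch 3 (2 KO, 2 WT libraries) were used. Bowtie2 2.3.1, MACS2, TopHat, TopHat2 2.1.0, Cufflinks, Cuffdiff and mm10 are named in the submitters' processing notes, without roles or order. The authors deposited 1 broad peak list per line, each with a fold over input (a ratio), −log10 p and −log10 q values, and a score equal to 10 times the −log10 q within a tolerance of 1. ChIP read depth is not given in the sources used here. The deposited RNA table holds estimated counts (raw fragments per locus) and FPKM values made by the authors, and 2.31% of the fragment values were not whole at a tolerance of 1e-09, so they were rounded and summed by gene. The 4 libraries held 14899109 and 17477122 (KO) and 16243188 and 15021953 (WT) fragments. No name in the table ties a library to a line, and p-values measure the spread between these cultures only.

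A promoter was the interval within 1 kb of any start of a named gene in the authors' merged annotation, and 1 base of overlap counted. Read counts were filtered with filterByExpr, scaled by TMM and tested KO against WT with edgeR 4.0.16 (R 4.3.3), quasi-likelihood F test with Benjamini-Hochberg adjustment at 0.05. Alternatives used DESeq2 1.42.0, limma 3.58.1 on log2(FPKM + 0.1), other scaling and filters, a −log10 q of at least 2, equal peak numbers, other windows, Xist status as a covariate and leaving out each line or library. The code was tested on simulated data. Peaks were compared in Python 3.11.15 with pandas 2.3.3, numpy 2.4.6 and scipy 1.17.1, and plotted with matplotlib 3.10.9. Counting intervals (95%) and the floor of 3 counts per library cover counting error only. The genes named are the 10 widest members of each group, up to 8 with the largest called RNA rise or fall, the 10 largest RNA rises and falls of all genes, list members in either group and the 10 widest peaks per line. Other named genes were chosen after their values were seen. Some genes that meet the rule are not reported here. The members and gene lists were chosen with earlier results of these data known.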

Additional observations from a re-analysis of the deposited data

How the results depend on the processing

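The median fold, averaged over the lines of a genotype, was lower in KO under all 7 alternatives. With the stricter q the difference was −0.074 and the lines of the 2 genotypes overlapped (exact permutation p = 0.667). Peaks, covered bases, median width and promoter share changed sign under at least 1 alternative. With −log10 q of at least 2, the KO minus WT difference was −765.5 peaks, 62.5 bp in median width and 0.55 percentage points in promoter share, each opposite in sign to the value with all peaks. Leaving out 1 line gave −7489.5 to 18185.5 peaks, −1.58 to 15.1 Mb covered, −45.5 to 28.5 bp median width, −0.40 to −0.079 in median fold and −1.78 to 0.75 points of promoter share. Both-KO promoters numbered 165 at the stricter q (90 of them among the 248) and 165 with equal peak numbers (135 among the 248). With at least 50% of the window covered, 38 of 173 were among the 248, and with a 2 kb window 183 of 291. Of the both-WT promoters, 41 of 136 at the stricter q, 87 of 163 with equal peak numbers and 109 of 218 with a 2 kb window were among the 170. Both-WT promoters numbered 78 when at least 50% of the window had to be covered (6 among the 170). Both-KO regions numbered 1216 at the stricter q, 1679 with equal peak numbers and 2078 with peaks under 3 kb apart joined. Both-WT regions numbered 1791 at the stricter q and 1745 with peaks joined. Leaving out 1 line, which asks for fewer lines to agree, gave 379 to 847 both-KO promoters, 279 to 610 both-WT promoters, 4925 to 29586 both-KO regions and 4855 to 25884 both-WT regions.

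RNA calls over all genes ranged from 2082 to 5645 without 1 library. Lower calls among both-KO genes ranged from 63 to 143, and higher calls among both-WT genes from 25 to 67, without 1 line or library. With Xist status of the libraries as a covariate, added after seeing the data, 4873 genes were called, 88 both-KO genes were lower and 8 higher, and 34 both-WT genes were higher and 1 lower. With 50% of the window covered, an alternative chosen after seeing the data, 14 both-WT genes were higher and 1 lower of 27 tested. With a stricter H3K27ac q, 2 both-WT genes were acetylated in both KO lines and neither WT line. The cause of these changes was not tested. No paired analysis was possible because the labels give no replicate numbers and no name in the RNA table ties a library to a line. With 2 lines per genotype and no ChIP depth, a missing peak does not show that the mark is absent.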
